A study of Bos indicus and Bos taurus with 17 samples.

Results

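The change from early to peak lactation in Kashmiri cattle was followed here as the ratio of gene levels at day 90 in milk (D90) over day 15 (D15), in mammary epithelial cells (MEC) captured from milk. A gene entered the comparison when the table named it and its level was at least 1 FPKM on either day. FPKM is a fragment count corrected for the length of the transcript and for the number of fragments mapped in the library. Of 21631 distinct names, 11297 passed this limit, and 11238 of them had a value above 0 on both days and so a ratio. Kashmiri D15 and D90 made up 6 of the 17 samples of the series, which also covered D250 and the Jersey breed.

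Kashmiri cattle are the native cows of the Kashmir valley, and Jersey is an international dairy breed. The Kashmiri D15 group held 3 samples taken in March, by the labels 2 of them from cows in lactation 3 and 1 from a cow in lactation 2. The D90 group held 3 samples taken in July, all from cows in lactation 2. Day in milk, month and lactation number moved together in the labels and cannot be told apart. The study's methods describe the same cows milked at each stage and place all of them in the third lactation, whereas the labelled lactation numbers differ between the days. The cells were pulled from the cell pellet of whole milk with magnetic beads carrying an antibody to keratin 18. No treatment is given for any group. The values were 1 FPKM per gene and group, estimated by the authors over the samples of the group. They held no replicates, so no error, p-value or test could be computed from them. The study itself tested this comparison gene by gene with Cuffdiff on its libraries, and those results are not used here. A single cow could carry a group value, and a fold of 2 or 4 stands below in place of a threshold of a test.

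Milk is made by the secretory epithelial cells that line the alveoli of the udder. They take up glucose, amino acids and fatty acids, build caseins, lactose and triglycerides, seal the alveolus with tight junctions, and release fat as droplets wrapped in their own apical membrane, under a programme driven by prolactin, STAT5 and the transcription factor ELF5. Shed epithelial cells reach the milk together with macrophages, lymphocytes and neutrophils, and the mix of these cells varies with stage of lactation and udder health.

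Almost as many genes were higher at D90 as were lower, 5594 against 5644, and the median log2 ratio was -0.01. At a fold of 2 or more, 2356 genes (21.0% of those with a ratio) were higher at D90 and 2587 (23.0%) were lower, while 6295 (56.0%) stayed within 2-fold. At a fold of 4 or more the balance tipped further, with 665 genes (5.92%) higher and 1077 (9.58%) lower. Named groups among the genes with a ratio ran in opposite directions. Genes of the secretory epithelium were lower at D90, and genes of macrophages, lymphocytes and lysosomes were higher. The 52 gene lists followed below held 543 genes with a ratio, so most genes past these folds lie outside them.

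The split between higher and lower depended on how the groups were scaled. The values as deposited summed to 969227 FPKM over the distinct names at D15 and to 786492 at D90. Scaling D90 to the upper quartile of D15 moved every log2 ratio by 0.22, and scaling it to the sum without the milk protein genes moved every one by 0.31. The share of 2-fold differences that were higher at D90 was 47.7% as deposited, 58.0% after the former and 62.2% after the latter. Ratios below are as deposited, and a group median within about 0.31 of 0 has no firm direction.

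The direction also followed the level of a gene. Among 114 genes with a mean of 1000 FPKM or more the median log2 ratio was -0.49, with 22.8% lower by 2-fold and 6.14% higher. The 667 genes between 100 and 1000 FPKM had a median of -0.42, with 32.2% lower and 18.0% higher. The 5729 genes between 1 and 10 FPKM had a median of 0.15, within the scaling shift, with 19.7% lower and 23.0% higher. Of the 513 genes under 1 FPKM on average, 23.2% stayed within 2-fold, but these passed the limit through 1 day alone and had to differ. The counts of list members below likewise describe the members with a ratio and leave out those under 1 FPKM on both days. A member under 1 FPKM on 1 day passed through the other day alone, which fixed the direction of its ratio. List counts are to be read beside the 21.0% of all genes higher and the 23.0% lower by 2-fold or more.

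**Figure D1:**
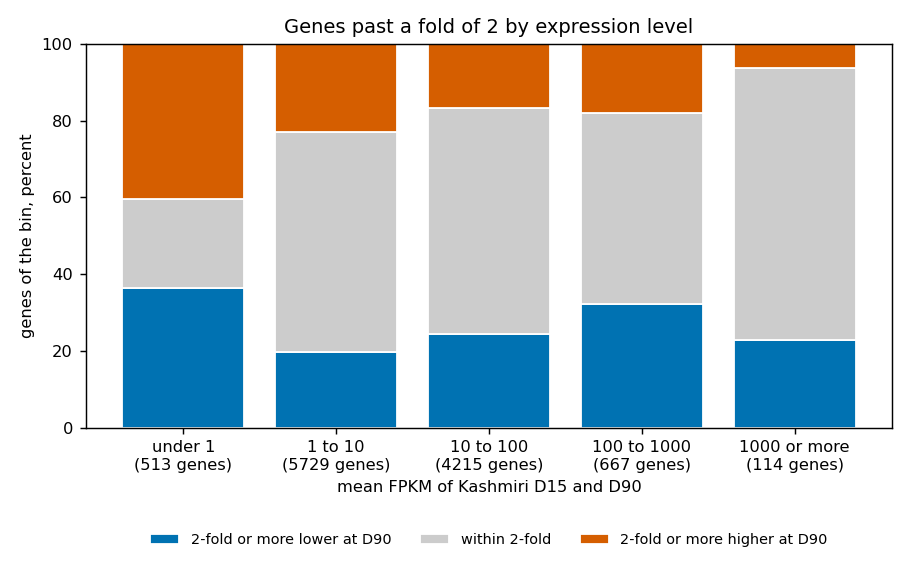
Share of genes (percent) at least 2-fold lower, within 2-fold and at least 2-fold higher at D90, by bins of the mean FPKM of Kashmiri D15 and D90. The lower share was the larger in the 3 bins from 10 FPKM up, and the higher share was the larger in the 2 bins below 10 FPKM.

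The capture antigen itself stood lower at D90. KRT18, keratin 18 of simple epithelia, was at 51.3 FPKM at D15 and 9.13 FPKM at D90 (log2 ratio -2.49). LSP1, a lymphocyte protein of the actin cytoskeleton, was at 139 FPKM at D15 against 254 at D90 (log2 ratio 0.87). ITGB2, the CD18 chain of the leucocyte integrins, was at 46.5 FPKM at D15 and 153 at D90, a log2 ratio of 1.72. The epithelial marker was thus lower and both leucocyte markers higher in the July samples. HBA, the alpha globin marker of red blood cells, was not found among the names, and none of the 5 red blood cell entries that were found reached 1 FPKM. In such bulk samples, fewer cells of a type and less RNA per cell cannot be told apart.

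Summed over the marker lists, the directions were the same. The 13 entries of keratins and epithelial identity summed to 3813 FPKM at D15 and 463 FPKM at D90. KRT19 alone made up most of that sum on both days. The 10 pan-leucocyte entries summed to 1149.8 and 3372 FPKM, and the 18 entries of T and NK cells to 1737 and 3974 FPKM. CCL5 alone made up most of the T and NK cell sum at D15. Macrophage markers, with 14 entries, went from 119 to 532 FPKM, and B and plasma cell markers, with 11 entries, from 22.6 to 99.2 FPKM. Leucocyte RNA was therefore present in both captured groups, and its part in any ratio below was not tested. The study checked purity by qPCR on D90 samples. It found KRT18 and CSN2 higher, and LSP1, HBA and CD18 lower, in captured cells than in all milk somatic cells. The authors proposed that contamination by other cell types was minimal. That check compared cell fractions and not D15 with D90.

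**Figure D2:**
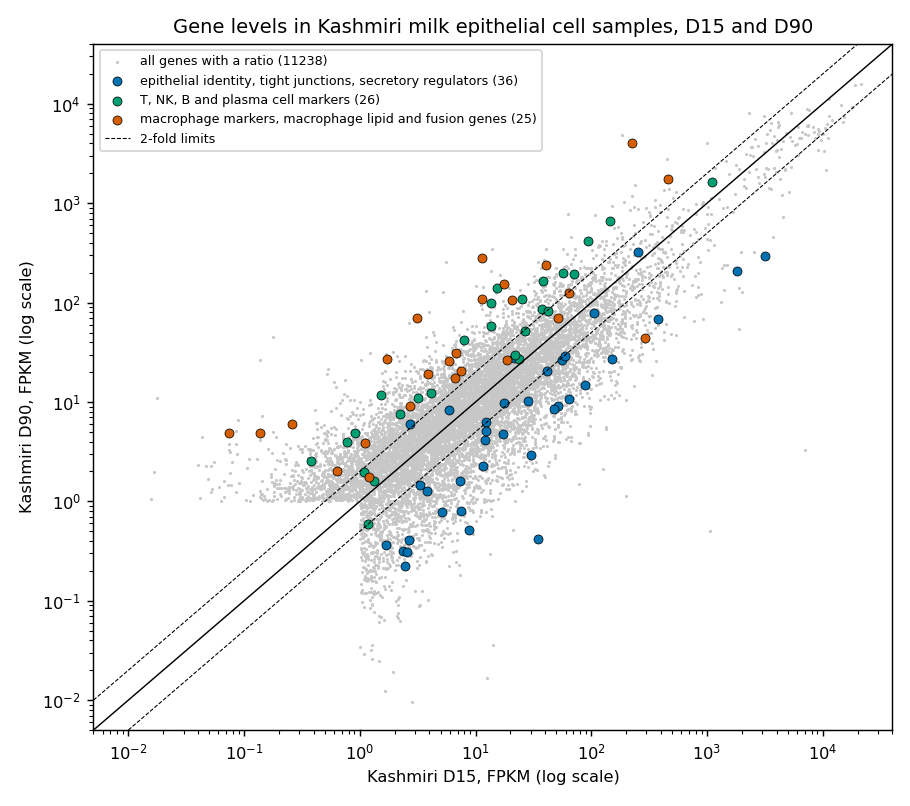
Each gene with a ratio by its FPKM at D15 (x axis) and D90 (y axis), both on log scales, with genes of epithelium in blue, lymphocytes in green and macrophages in orange. The solid line marks equal levels and the dashed lines a fold of 2. Blue points lie mostly below the line and orange and green points mostly above it.

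Among 12 entries of keratins and epithelial identity with a ratio, 10 were lower by 2-fold or more and 1 was higher, with a median log2 ratio of -1.84. KRT19, a keratin of ductal and luminal cells, was the most abundant and stood at 3195 FPKM at D15 and 295 FPKM at D90 (log2 ratio -3.44). KRT7, another keratin of simple epithelia, was at 381 FPKM at D15 against 69.0 at D90 (log2 ratio -2.46). GRHL2, a transcription factor that maintains epithelial adhesion, was at 2.46 FPKM at D15 and 0.226 at D90, a log2 ratio of -3.44. ESRP1, the splicing factor of epithelial isoforms, was at 7.31 FPKM at D15 and 1.59 FPKM at D90 (log2 ratio -2.20). CDH1, or E-cadherin, was at 12.4 FPKM at D15 against 5.05 at D90 (log2 ratio -1.29), and at D250 it reached 31.2 FPKM. The joined entry that holds KRT8, the partner of keratin 18, showed a smaller difference, from 55.5 to 26.2 FPKM. KRT5, a keratin of basal and myoepithelial cells, was the 1 member higher by 2-fold and stood at 2.74 FPKM at D15 and 6.03 at D90, a log2 ratio of 1.14.

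Tight junction genes were lower throughout. All 11 tight junction entries with a ratio were lower by 2-fold or more, with a median log2 ratio of -2.48 that was -1.65 with a pseudocount of 1 FPKM. CLDN3, a sealing claudin, was at 151 FPKM at D15 and 27.1 FPKM at D90 (log2 ratio -2.48). CLDN8 showed the lowest ratio of the list, at 30.4 FPKM at D15 against 2.92 at D90 (log2 ratio -3.38). CGN, or cingulin, which ties the junction to actin, was at 7.48 FPKM at D15 and 0.793 at D90, a log2 ratio of -3.24. TJP3, a scaffold of the junction, was at 47.2 FPKM at D15 and 8.42 FPKM at D90 (log2 ratio -2.49). CLDN4 was the member least displaced, at 41.3 FPKM at D15 against 20.3 at D90 (log2 ratio -1.03), and it was above its D15 level again at D250 with 73.5 FPKM. Outside this list, CLDN6, a claudin of embryonic epithelia, was at 0.141 FPKM at D15 and 1.17 at D90, a log2 ratio of 3.06, a difference between levels near 1 FPKM.

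Of 10 entries for desmosomes and adherens junctions, 8 were lower by 2-fold and 1 was higher, with a median of -2.41. DSP, or desmoplakin, which anchors keratin filaments, was at 12.1 FPKM at D15 and 1.03 FPKM at D90 (log2 ratio -3.55). PKP3, a plakophilin of the desmosomal plaque, was at 26.0 FPKM at D15 against 2.82 at D90 (log2 ratio -3.21). JUP, or plakoglobin, was at 24.5 FPKM at D15 and 3.83 at D90, a log2 ratio of -2.67. The catenins were split. CTNND1, which stabilises cadherins at the membrane, was at 27.0 FPKM at D15 and 4.40 FPKM at D90 (log2 ratio -2.62), while CTNNB1, or beta-catenin, was nearly level at 35.0 FPKM at D15 against 38.8 at D90 (log2 ratio 0.15). CDH3, or P-cadherin, in a joined entry, stood higher, at 1.84 FPKM at D15 and 5.53 at D90, a log2 ratio of 1.59.

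Among the regulators of the secretory programme with a ratio, 8 of 13 were lower by 2-fold or more and 0 were higher, with a median of -2.56. The size of this median rests on members of low level: it was -0.95 over the 9 members with at least 10 FPKM on either day and -1.35 with a pseudocount of 1 FPKM. ELF5, the ETS factor that drives alveolar differentiation, was at 1799 FPKM at D15 and 206 FPKM at D90 (log2 ratio -3.12). SPDEF, an ETS factor of secretory cells, was at 34.5 FPKM at D15 against 0.415 at D90 (log2 ratio -6.38). TFAP2C, a factor of luminal identity, was at 8.86 FPKM at D15 and 0.514 at D90, a log2 ratio of -4.11. EHF, another epithelial ETS factor, was at 63.6 FPKM at D15 and 10.8 FPKM at D90 (log2 ratio -2.56). Both hormone receptors of lactation on the list were low on both days: PRLR, the prolactin receptor, was at 2.64 FPKM at D15 against 0.409 at D90 (log2 ratio -2.69), and GHR, the growth hormone receptor, at 2.36 FPKM at D15 and 0.319 at D90, a log2 ratio of -2.89.

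The signal transducers downstream of these receptors stood near level. STAT5A was at 106 FPKM at D15 and 78.5 FPKM at D90 (log2 ratio -0.44). STAT5B was at 21.3 FPKM at D15 against 27.6 at D90 (log2 ratio 0.37), and XBP1, which expands the secretory endoplasmic reticulum, was at 256 FPKM at D15 and 321 at D90, a log2 ratio of 0.33. These 3 ratios lie near the size of the scaling shift. Of 14 genes of the JAK, STAT and SOCS families with a ratio, 4 were higher by 2-fold or more and 2 lower, with a median of 0.06. Over all genes these shares were 21.0% and 23.0%, so such small counts show no direction for the list. The 2 lower were feedback inhibitors of cytokine signalling, CISH at 42.0 FPKM at D15 and 17.6 FPKM at D90 (log2 ratio -1.25) and SOCS2 at 4.64 FPKM at D15 against 2.11 at D90 (log2 ratio -1.13). The 4 higher were PIAS1, an inhibitor of activated STAT, IL6ST, the shared receptor chain of the interleukin-6 family, and the kinases TYK2 and JAK3, with log2 ratios of 2.68, 1.76, 1.45 and 1.09.

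Developmental factors of epithelium, a list put together after the values had been seen and given as description only, were lower in all 19 members, with a median of -3.25 that was -1.48 with a pseudocount of 1 FPKM. IRX1, IRX2, IRX3 and IRX5 are Iroquois homeobox factors. IRX1 was at 134 FPKM at D15 and 5.62 at D90, a log2 ratio of -4.58, and IRX3 at 97.8 FPKM at D15 and 5.80 FPKM at D90 (log2 ratio -4.08). SOX10, a factor of the luminal progenitor and of myoepithelium, was at 98.1 FPKM at D15 against 8.41 at D90 (log2 ratio -3.54). NFIX, a nuclear factor I protein, was at 19.4 FPKM at D15 and 1.34 at D90, a log2 ratio of -3.85. BARX2, a homeobox factor of epithelial adhesion, was at 13.3 FPKM at D15 and 0.297 FPKM at D90 (log2 ratio -5.48). Growth factor receptors were also looked up after the values had been seen and are given as description only. ERBB2 was at 12.3 FPKM at D15 against 0.786 at D90 (log2 ratio -3.97). ERBB3 was at 11.9 FPKM at D15 and 1.06 at D90, a log2 ratio of -3.49. The other 6 receptors looked up, among them EGFR and LEPR, stayed under 1 FPKM on both days.

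Genes that build and release milk fat were lower as a group, most clearly at the step of secretion. All 6 entries of fat globule secretion with a ratio were lower by 2-fold or more, with a median of -2.27. XDH, xanthine oxidoreductase of the globule membrane, was at 1953 FPKM at D15 and 323 FPKM at D90 (log2 ratio -2.60). PLIN2, the coat of the nascent droplet, was at 1359.8 FPKM at D15 against 225 at D90 (log2 ratio -2.60). MFGE8, or lactadherin, was at 1024 FPKM at D15 and 339 at D90, a log2 ratio of -1.60. ABCG2, the transporter that carries riboflavin and drugs into milk, was at 153 FPKM at D15 and 33.7 FPKM at D90 (log2 ratio -2.18). RAB18, a small GTPase on lipid droplets, showed the smallest difference of the list, at 117 FPKM at D15 against 43.3 at D90 (log2 ratio -1.43). BTN1A1, or butyrophilin, was not found among the names.

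Of 8 entries of de novo fatty acid synthesis, 6 were lower by 2-fold or more and 2 were higher. FASN, fatty acid synthase, was at 829 FPKM at D15 and 142 at D90, a log2 ratio of -2.54. ACACA, the committed step from acetyl-CoA to malonyl-CoA, had the lowest ratio at 128 FPKM at D15 and 11.5 FPKM at D90 (log2 ratio -3.48). ACSS2, which activates the acetate that ruminants use for milk fat, was at 382 FPKM at D15 against 105 at D90 (log2 ratio -1.86). SREBF1, the lipogenic transcription factor, was at 91.8 FPKM at D15 and 33.8 at D90, a log2 ratio of -1.44. The exceptions were ACLY, ATP citrate lyase, which ruminant mammary cells use little, in a joined entry at 7.43 FPKM at D15 and 17.3 FPKM at D90 (log2 ratio 1.22), and ELOVL6, a fatty acid elongase, at 0.619 FPKM at D15 against 1.68 at D90 (log2 ratio 1.44).

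Uptake of preformed fatty acids was divided by gene. FABP3, the mammary fatty acid binding protein and one of the most abundant named transcripts at D15, was at 10560.5 FPKM at D15 and 2159 at D90, a log2 ratio of -2.29. LPL, lipoprotein lipase, was at 289.7 FPKM at D15 and 43.8 FPKM at D90 (log2 ratio -2.72). SLC27A6, a fatty acid transporter, was at 49.1 FPKM at D15 against 2.76 at D90 (log2 ratio -4.15). The isoforms of fat cells and macrophages went the other way. FABP4 was at 17.6 FPKM at D15 and 154 at D90, a log2 ratio of 3.13, and FABP5 at 13.7 FPKM at D15 and 210.3 FPKM at D90 (log2 ratio 3.94). The 12 members of the uptake list therefore had 4 higher and 5 lower by 2-fold, and a median of 0.37.

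In triglyceride assembly, 4 of 9 entries were lower by 2-fold or more, 0 were higher and the median was -0.80. GPAM, the mitochondrial acyltransferase of the first step, was at 86.7 FPKM at D15 against 9.06 at D90 (log2 ratio -3.26). LPIN1, a phosphatidate phosphatase, was at 51.9 FPKM at D15 and 5.63 at D90, a log2 ratio of -3.20. GPAT4, the acyltransferase of the endoplasmic reticulum, was at 319 FPKM at D15 and 73.8 FPKM at D90 (log2 ratio -2.11). DGAT1, which adds the last acyl chain, was nearly level at 12.7 FPKM at D15 against 14.2 at D90 (log2 ratio 0.16). The 4 lower genes, the last of them AGPAT1 at 169 FPKM at D15 and 40.0 at D90, a log2 ratio of -2.08, all act before the final acyl transfer.

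Milk protein genes could not be followed in these values. CSN2, the beta-casein gene, and CSN1S1, the alpha-s1-casein gene, were listed at 0 on both days, and so was PAEP, the beta-lactoglobulin gene. CSN3, the kappa-casein gene, was listed at 8174 FPKM at D15 and at 0 at D90. LALBA, alpha-lactalbumin of the lactose synthase, was listed at 0 at D15 and at 12933 FPKM at D90. GAPDH, a glycolytic gene of every cell, was listed at 0 on both days too, so a 0 in this table may be an estimate that failed. The study's paper reported CSN1S1, CSN2, CSN3, LALBA and beta-lactoglobulin far above 0 on both days in Kashmiri cattle. Each differed there by less than 2-fold between D15 and D90, so the listings of 0 here cannot be read as absence. The minor milk proteins with values on both days were lower at D90: LPO, lactoperoxidase, was at 249.8 FPKM at D15 and 64.4 FPKM at D90 (log2 ratio -1.96), and MUC1, the mucin of the apical membrane, at 137 FPKM at D15 against 43.0 at D90 (log2 ratio -1.67).

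In all, 59 genes past the limit were listed at 0 on one day, 30 at D15 and 29 at D90, and 14 of them reached 100 FPKM on the other day. SNORD2, a small nucleolar RNA, was listed at 0 at D15 and at 13156 FPKM at D90. SNORD96 and SNORD33 were listed only at D15, at 1237 and 598 FPKM. A joined entry of many mitochondrial genes, among them COX1, COX3, ATP6 and ND4, was listed at 287 FPKM at D15 and at 0 at D90, whereas the entry joining ND1 and ND2 went from 183 to 4885 FPKM. No ratio was taken for these listings of 0.

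Lactose synthesis showed a mixed picture, with 4 of 11 entries lower by 2-fold or more, 1 higher and a median of -0.56. B4GALT1, the galactosyltransferase of lactose synthase, was at 112 FPKM at D15 and 52.0 at D90, a log2 ratio of -1.11. UGP2, which makes UDP-glucose, was at 190.2 FPKM at D15 and 49.7 FPKM at D90 (log2 ratio -1.94). SLC2A1, the main glucose transporter of the gland, was at 36.0 FPKM at D15 against 17.9 at D90 (log2 ratio -1.01). GPI, glucose phosphate isomerase, was the 1 member higher by 2-fold, at 66.7 FPKM at D15 and 154 at D90, a log2 ratio of 1.21.

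Glycolysis sorted by isoenzyme. LDHA, the lactate dehydrogenase subunit of glycolytic cells, was at 24.2 FPKM at D15 and 134 FPKM at D90 (log2 ratio 2.47), whereas LDHB, the subunit of oxidative cells, was at 400.1 FPKM at D15 against 210.0 at D90 (log2 ratio -0.93). PKM, pyruvate kinase, was at 101 FPKM at D15 and 337 at D90, a log2 ratio of 1.74. ALDOC, an aldolase isoform, was at 289 FPKM at D15 and 59.8 FPKM at D90 (log2 ratio -2.27), against ALDOA at 444 FPKM at D15 against 589 at D90 (log2 ratio 0.41). PFKP was higher, at 13.5 FPKM at D15 and 34.7 at D90, a log2 ratio of 1.36, and PFKM lower, at 4.65 FPKM at D15 and 1.05 FPKM at D90 (log2 ratio -2.15). The 13 members with a ratio had 4 higher and 3 lower by 2-fold, and a median of 0.73.

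Mineral and amino acid transport genes had more members lower than higher. Of 10 mineral genes, 6 were lower by 2-fold and 2 higher, with a median of -1.64. ATP2C2, a calcium pump of the Golgi, was at 147 FPKM at D15 against 16.6 at D90 (log2 ratio -3.14), while ATP2A2, the pump of the endoplasmic reticulum found in all cells, was at 7.56 FPKM at D15 and 17.2 at D90, a log2 ratio of 1.18. SLC34A2, an apical phosphate transporter, was at 71.9 FPKM at D15 and 9.96 FPKM at D90 (log2 ratio -2.85), and SLC20A1, a widely expressed one, at 42.2 FPKM at D15 against 98.2 at D90 (log2 ratio 1.22). SLC30A2, which loads zinc into secretory vesicles, was at 57.4 FPKM at D15 and 6.25 at D90, a log2 ratio of -3.20. Of 11 amino acid transporters, 5 were lower and 2 higher by 2-fold. SLC7A5, the large neutral amino acid carrier, was at 92.9 FPKM at D15 and 23.0 FPKM at D90 (log2 ratio -2.01), SLC7A4 at 122 FPKM at D15 against 15.4 at D90 (log2 ratio -2.99), and SLC38A2, a transporter induced by amino acid need, at 10.6 FPKM at D15 and 23.6 at D90, a log2 ratio of 1.15.

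Of 16 antimicrobial genes of milk, 4 had a ratio, with 3 lower by 2-fold or more, 1 higher and a median of -2.18. The joined entry of RNASE4 was at 840.4 FPKM at D15 and 119 FPKM at D90 (log2 ratio -2.82). PGLYRP1, a peptidoglycan recognition protein, was at 3.91 FPKM at D15 against 0.733 at D90 (log2 ratio -2.41), and LPO was the third. LYZ, lysozyme, which macrophages also make, was the higher member, at 11.4 FPKM at D15 and 86.5 at D90, a log2 ratio of 2.92. Of 4 complement and acute phase genes with a ratio, 2 were lower and 1 higher, with a median of -1.50 that was -0.53 without a limit on low values. PIGR, which carries IgA into milk, was at 242 FPKM at D15 and 43.9 FPKM at D90 (log2 ratio -2.46). LBP, the lipopolysaccharide binding protein, was at 47.8 FPKM at D15 against 7.30 at D90 (log2 ratio -2.71), while C2, a complement protease, was higher at 3.46 FPKM at D15 and 16.0 at D90, a log2 ratio of 2.21.

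Genes of the mitochondrion and of protein synthesis stood nearer to level. Of 66 mitochondrial ribosomal proteins, 24 were lower by 2-fold and 2 higher, with a median of -0.72. Of 57 nuclear subunits of the respiratory chain, 14 were lower and 1 higher, with a median of -0.51, and this share of lower members is near the 23.0% of all genes. Of 42 cytosolic ribosomal proteins, 6 were lower and 2 higher, with a median of -0.32 that came to -0.01 after scaling to the sum without the milk protein genes, and their share of lower members is below that of all genes. Of 18 translation factors, 3 were higher and 2 lower, with a median of -0.25. The 48 ribosomal entries took 26.4% of the summed FPKM of the distinct names at D15 and 24.5% at D90. RPLP1, a stalk protein, had the highest FPKM of the named genes on both days, at 21400.1 FPKM at D15 and 15713 FPKM at D90 (log2 ratio -0.45). That rank and these shares hold for a table that lists CSN2, CSN1S1 and PAEP at 0. RPS2 was at 15240.5 FPKM at D15 against 7365 at D90 (log2 ratio -1.05), and RPS27 went the other way, at 2291 FPKM at D15 and 8037 at D90, a log2 ratio of 1.81.

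**Figure D3:**
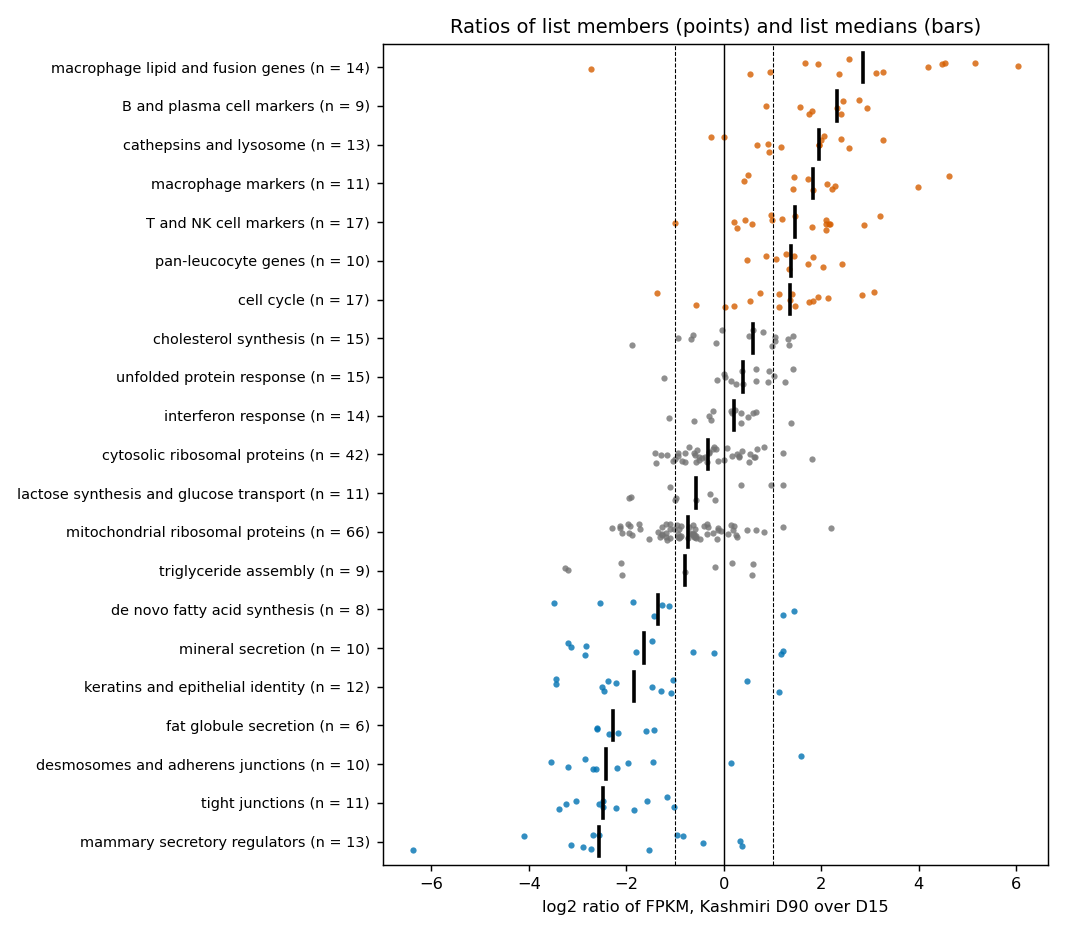
Log2 ratios D90 over D15 of the members of 21 lists (points) with the list median (bar) and n, the number of members with a ratio. Dashed lines mark a fold of 2. Medians ran from -2.56 for the secretory regulators to 2.85 for the macrophage lipid and fusion genes.

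The higher side of the comparison was led by macrophage genes. Of 11 macrophage markers with a ratio, 9 were higher by 2-fold or more and 0 lower, with a median of 1.82. CD68, a lysosomal glycoprotein of macrophages, was at 11.4 FPKM at D15 and 281 FPKM at D90 (log2 ratio 4.62). VSIG4, a complement receptor of tissue macrophages, was at 1.73 FPKM at D15 against 27.3 at D90 (log2 ratio 3.98). CSF1R, the receptor for the macrophage growth factor, was at 3.90 FPKM at D15 and 18.9 at D90, a log2 ratio of 2.28. CD163, the haemoglobin scavenger receptor, was at 2.73 FPKM at D15 and 9.03 FPKM at D90 (log2 ratio 1.73). C1QA, a chain of complement C1q, was at 6.73 FPKM at D15 against 31.3 at D90 (log2 ratio 2.21). CD14, the lipopolysaccharide co-receptor, was nearer to level at 51.8 FPKM at D15 and 69.5 at D90, a log2 ratio of 0.42.

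Genes of lipid-loaded and fusing macrophages had the highest median of the lists with at least 4 ratios, with 11 of 14 higher by 2-fold or more, 1 lower and a median of 2.85. ATP6V0D2, a proton pump subunit of macrophages and osteoclasts, was at 0.0749 FPKM at D15 and 4.92 FPKM at D90 (log2 ratio 6.04). PPARG, the lipid-sensing nuclear receptor, was at 0.258 FPKM at D15 against 6.02 at D90 (log2 ratio 4.54). CPM, a membrane carboxypeptidase, was at 0.138 FPKM at D15 and 4.90 at D90, a log2 ratio of 5.14. These 3 ratios start from less than 1 FPKM at D15. The abundant members were higher too, with GPNMB, a glycoprotein of phagocytes, at 3.14 FPKM at D15 and 69.7 FPKM at D90 (log2 ratio 4.47), LIPA, the lysosomal acid lipase, at 11.4 FPKM at D15 against 109.6 at D90 (log2 ratio 3.27), and APOE, apolipoprotein E, at 463 FPKM at D15 and 1764 at D90, a log2 ratio of 1.93. SPP1, osteopontin, which both macrophages and secretory epithelium make, was at 224 FPKM at D15 and 4072 FPKM at D90 (log2 ratio 4.19). It was listed at 0 at Kashmiri D250 and at Jersey D90, against 2639 and 3051 FPKM at Jersey D15 and D250. These listings of 0 may be estimates that failed, so its ratio is to be read with caution. LPL was the 1 member that was lower.

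Lysosomal proteases were higher as well. Of 13 entries of cathepsins and lysosome, 8 were higher by 2-fold or more and 0 lower, with a median of 1.95. CTSB, cathepsin B, was the most abundant and stood at 235 FPKM at D15 against 909 at D90 (log2 ratio 1.95). CTSH was at 43.1 FPKM at D15 and 180.3 at D90, a log2 ratio of 2.07, and the joined entry of CTSK and CTSS at 40.3 FPKM at D15 and 238 FPKM at D90 (log2 ratio 2.56). LGMN, or legumain, was at 69.0 FPKM at D15 against 276 at D90 (log2 ratio 2.00). LAMP1, a membrane protein of all lysosomes, was level at 178 FPKM at D15 and 179 at D90, a log2 ratio of 0.01. Of the 15 vacuolar ATPase subunits, 5 were higher by 2-fold and 0 lower, with a median of 0.70.

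Genes of class II antigen presentation were higher, and those of class I were near level. All 6 class II entries with a ratio were higher, 4 of them by 2-fold or more. CD74, the invariant chain, was at 240.5 FPKM at D15 and 1533 FPKM at D90 (log2 ratio 2.67). CD86, a costimulatory ligand, was at 2.21 FPKM at D15 against 11.3 at D90 (log2 ratio 2.35). The 10 class I entries had 1 higher and 0 lower by 2-fold and a median of 0.19. B2M, the light chain of class I, was that one, at 3089.8 FPKM at D15 and 7468 at D90, a log2 ratio of 1.27, while PSMB8, an immunoproteasome subunit, was at 606 FPKM at D15 and 391 FPKM at D90 (log2 ratio -0.63).

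T cell genes were higher across receptor, coreceptor and signalling chains. Of 17 T and NK cell markers, 10 were higher by 2-fold or more and 1 lower, with a median of 1.47. CD3E, a chain of the T cell receptor complex, was at 146 FPKM at D15 against 659 at D90 (log2 ratio 2.18). TRAC, the constant region of the alpha chain, was at 93.7 FPKM at D15 and 419 at D90, a log2 ratio of 2.16. CD4, the coreceptor of helper cells, was at 13.5 FPKM at D15 and 98.9 FPKM at D90 (log2 ratio 2.88), whereas CD8A, the coreceptor of cytotoxic cells, was at 23.5 FPKM at D15 against 27.2 at D90 (log2 ratio 0.21). CD2, an adhesion molecule of T cells, was at 15.3 FPKM at D15 and 141 at D90, a log2 ratio of 3.20. The granule proteases were low on both days, GZMA at 1.32 FPKM at D15 and 1.59 FPKM at D90 (log2 ratio 0.27) and GZMB at 1.18 FPKM at D15 against 0.589 at D90 (log2 ratio -1.01). CCL5, a chemokine of activated T cells, was already at 1109 FPKM at D15 and stood at 1649 at D90.

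A list of T cell homing and costimulation genes, put together after the values had been seen and given as description only, had 25 of 28 members higher by 2-fold or more. CCR7, the receptor that leads naive and memory cells to lymph nodes, was at 14.0 FPKM at D15 and 102 at D90, a log2 ratio of 2.86. TCF7, a factor of naive and memory T cells, was at 4.28 FPKM at D15 and 50.2 FPKM at D90 (log2 ratio 3.55). SKAP1, an adaptor of integrin activation, was at 15.0 FPKM at D15 against 125 at D90 (log2 ratio 3.05). CD28 was at 3.96 FPKM at D15 and 24.9 at D90, a log2 ratio of 2.65, and its counterpart CTLA4 at 2.14 FPKM at D15 and 15.2 FPKM at D90 (log2 ratio 2.83). FOXP3, the factor of regulatory T cells, was at 1.72 FPKM at D15 against 1.28 at D90 (log2 ratio -0.43).

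B and plasma cell genes were low in level and higher at D90 without exception: 8 of 9 by 2-fold or more, with a median of 2.33 that was 1.47 with a pseudocount of 1 FPKM. CD79A, a chain of the B cell receptor complex, was the most abundant, at 8.03 FPKM at D15 and 42.5 at D90, a log2 ratio of 2.40. JCHAIN, the chain that joins IgA dimers, was at 3.17 FPKM at D15 and 11.1 FPKM at D90 (log2 ratio 1.80). Pan-leucocyte genes followed, with 8 of 10 higher by 2-fold and a median of 1.39. LAPTM5, a lysosomal protein of blood cells, was at 223 FPKM at D15 against 1193 at D90 (log2 ratio 2.42), PTPRC, or CD45, at 68.7 FPKM at D15 and 166 at D90, a log2 ratio of 1.27, and TYROBP, an adaptor of myeloid and NK receptors, at 99.6 FPKM at D15 and 407 FPKM at D90 (log2 ratio 2.03).

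Neutrophil markers had members in both directions. Of 8 with a ratio, 5 were higher and 2 lower by 2-fold, with a median of 1.15. S100A12, a calcium-binding protein of granulocytes, was at 39.0 FPKM at D15 against 240.4 at D90 (log2 ratio 2.62). CSF3R, the receptor of the granulocyte growth factor, was nearly level in a joined entry at 53.9 FPKM at D15 and 61.6 at D90, a log2 ratio of 0.19. CSF2RB, the shared receptor chain of several myeloid cytokines, was lower, at 109 FPKM at D15 and 21.9 FPKM at D90 (log2 ratio -2.32). The receptors CXCR1 and CXCR2 were not found among the names. Of 10 chemokines with a ratio, 6 were higher by 2-fold or more and 1 lower, with a median of 1.33. CCL2, which attracts monocytes, was at 7.85 FPKM at D15 against 82.6 at D90 (log2 ratio 3.40), CXCL16 at 17.4 FPKM at D15 and 79.5 at D90, a log2 ratio of 2.19, and CCL4 was level at 269.7 FPKM at D15 and 280.2 FPKM at D90 (log2 ratio 0.06). CXCL12, a chemokine of stromal and epithelial cells, was the 1 lower member, at 48.7 FPKM at D15 against 2.92 at D90 (log2 ratio -4.06).

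Cell cycle genes were low in level and mostly higher, with 11 of 17 higher by 2-fold or more, 1 lower and a median of 1.36. With a pseudocount of 1 FPKM that median was 0.86. CCNB1, AURKA and MKI67 were under 1 FPKM at D15 and passed the limit through D90 alone. CCNB1, cyclin B1, was at 0.386 FPKM at D15 and 3.28 at D90, a log2 ratio of 3.09. AURKA, a mitotic kinase, was at 0.465 FPKM at D15 and 3.30 FPKM at D90 (log2 ratio 2.83). PCNA, the sliding clamp of replication, was at 17.2 FPKM at D15 against 44.0 at D90 (log2 ratio 1.36), and MKI67, the proliferation antigen, at 0.796 FPKM at D15 and 2.19 at D90, a log2 ratio of 1.46. CDKN1A, an inhibitor of the cycle, was also higher, at 37.2 FPKM at D15 and 131 FPKM at D90 (log2 ratio 1.82), and CCND1, or cyclin D1, was lower, at 2.55 FPKM at D15 against 0.986 at D90 (log2 ratio -1.37). CKS2, a partner of the cyclin-dependent kinases, ranked among the highest ratios at 3.96 FPKM at D15 and 80.3 at D90, a log2 ratio of 4.34.

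Several further groups were higher by smaller amounts. Of 13 immediate early factors 7 were higher by 2-fold and 0 lower, with a median of 1.12, and EGR2 was at 2.76 FPKM at D15 and 11.4 FPKM at D90 (log2 ratio 2.04). Of 11 sialyl- and fucosyltransferases 6 were higher and 0 lower, among them FUT8, the core fucosyltransferase, at 2.01 FPKM at D15 against 7.88 at D90 (log2 ratio 1.97). In iron handling, with 4 of 8 higher, FTH1, the ferritin heavy chain, was at 1005 FPKM at D15 and 4004 at D90, a log2 ratio of 1.99, and ACO1, an iron-sensing aconitase, was lower at 118 FPKM at D15 and 36.4 FPKM at D90 (log2 ratio -1.70). Of 16 antioxidant and NADPH oxidase genes 6 were higher and 1 lower, with RAC2, the small GTPase of the leucocyte oxidase, at 71.7 FPKM at D15 against 301 at D90 (log2 ratio 2.07).

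The cholesterol pathway leaned higher, with 5 of 15 higher by 2-fold, 1 lower and a median of 0.61. CYP51A1, a sterol demethylase, was at 25.7 FPKM at D15 and 68.1 at D90, a log2 ratio of 1.41. MVK, mevalonate kinase, was at 139 FPKM at D15 and 37.7 FPKM at D90 (log2 ratio -1.88). NR1H3, the sterol-sensing liver X receptor, was at 6.78 FPKM at D15 against 17.8 at D90 (log2 ratio 1.39). It is 1 of 13 nuclear hormone receptors with a ratio, of which 6 were lower by 2-fold or more and 3 higher, with a median of -0.22 that has no firm direction. THRB, a thyroid hormone receptor, was at 14.3 FPKM at D15 and 1.04 at D90, a log2 ratio of -3.78, and VDR, the vitamin D receptor, at 24.1 FPKM at D15 and 5.68 FPKM at D90 (log2 ratio -2.09). The other higher members were NR4A1, an immediate early factor, at 17.0 FPKM at D15 against 49.2 at D90 (log2 ratio 1.53), and PPARG of the macrophage genes above.

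As deposited, stress and interferon genes were close to level between the March and the July samples. Their list medians were further from 0 after scaling to the sum without the milk protein genes. They were then 0.68 for cytosolic heat shock, 0.70 for the unfolded protein response and 0.51 for interferon response. The 12 cytosolic heat shock entries with a ratio had 1 higher and 0 lower by 2-fold and a median of 0.37. HSPA8, the constitutive HSP70, was that one, at 511 FPKM at D15 and 1141 at D90, a log2 ratio of 1.16, and HSP90AA1 was level with 286 and 285 FPKM. Of 15 unfolded protein response genes 3 were higher and 1 lower, with a median of 0.39 as deposited. Of 14 interferon response entries 1 was higher and 1 lower, with a median of 0.20. ISG15, a ubiquitin-like interferon product, was that lower one, at 545 FPKM at D15 and 248 FPKM at D90 (log2 ratio -1.13). Of 11 clock genes 3 were higher and 4 lower by 2-fold. ARNTL, an activator of the clock, was at 5.05 FPKM at D15 against 12.9 at D90 (log2 ratio 1.36), and PER1, a repressor, at 20.3 FPKM at D15 and 41.9 at D90, a log2 ratio of 1.04. The output factors were lower, DBP at 25.3 FPKM at D15 and 6.88 FPKM at D90 (log2 ratio -1.88) and TEF at 18.2 FPKM at D15 against 4.49 at D90 (log2 ratio -2.02). NR1D1, a repressor of ARNTL, was at 3.99 FPKM at D15 and 0.775 at D90, a log2 ratio of -2.36. The hour of milking was not in the labels.

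The extremes of the comparison were ranked among gene symbols with at least 10 FPKM on either day. Some of these genes were described above and others were not. They come from the same ratios as the lists and give no separate support to them. BARX2, IRX1 and TCF7 were on lists put together after the values had been seen. Among the 15 lowest ratios were SPDEF, BARX2, IRX1 and SLC27A6, described above, and GPRC5B, an orphan receptor, at 135 FPKM at D15 and 5.29 FPKM at D90 (log2 ratio -4.67). LRP3, a receptor of the LDL receptor family, was at 79.3 FPKM at D15 against 3.87 at D90 (log2 ratio -4.36). LRRC26, a potassium channel subunit of secretory epithelia, was at 93.8 FPKM at D15 and 4.62 at D90, a log2 ratio of -4.35. KLHL40, known as a muscle ubiquitin ligase adaptor, was at 200.5 FPKM at D15 and 10.5 FPKM at D90 (log2 ratio -4.25). CYB561, an ascorbate-dependent reductase of secretory vesicles, was at 42.5 FPKM at D15 against 2.25 at D90 (log2 ratio -4.24). CLEC3B, or tetranectin, was at 79.0 FPKM at D15 and 3.88 at D90, a log2 ratio of -4.35. MYOM1, SOWAHB and SPATA3 were also among them, with log2 ratios of -4.43, -4.29 and -4.41.

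TMEM232, a membrane protein of little known function, had the lowest ratio of the gene symbols so ranked, at 1051 FPKM at D15 and 0.506 FPKM at D90 (log2 ratio -11.02). Its high D15 value was found in no other group, since the 4 groups outside this comparison lay between 0.248 and 1.34 FPKM.

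Among the 15 highest ratios, PLA2G7, the phospholipase that degrades platelet-activating factor, was at 1.22 FPKM at D15 against 31.2 at D90 (log2 ratio 4.68). EVI2B, a membrane protein of blood cells, was at 2.67 FPKM at D15 and 62.7 at D90, a log2 ratio of 4.55. LGALS3, galectin-3 of macrophages, was at 63.0 FPKM at D15 and 774 FPKM at D90 (log2 ratio 3.62). MMP19, a matrix metalloproteinase, was at 10.2 FPKM at D15 against 147 at D90 (log2 ratio 3.86). GPR183, a receptor for oxysterols that positions lymphocytes, was at 3.72 FPKM at D15 and 45.4 at D90, a log2 ratio of 3.61. SLC37A2, a sugar phosphate transporter of macrophages, was at 2.19 FPKM at D15 and 25.8 FPKM at D90 (log2 ratio 3.56), RARRES1, a retinoid-responsive gene, at 2.46 FPKM at D15 against 28.7 at D90 (log2 ratio 3.54), and RCAN2, a calcineurin regulator, at 0.895 FPKM at D15 and 10.5 at D90, a log2 ratio of 3.56.

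**Figure D4:**
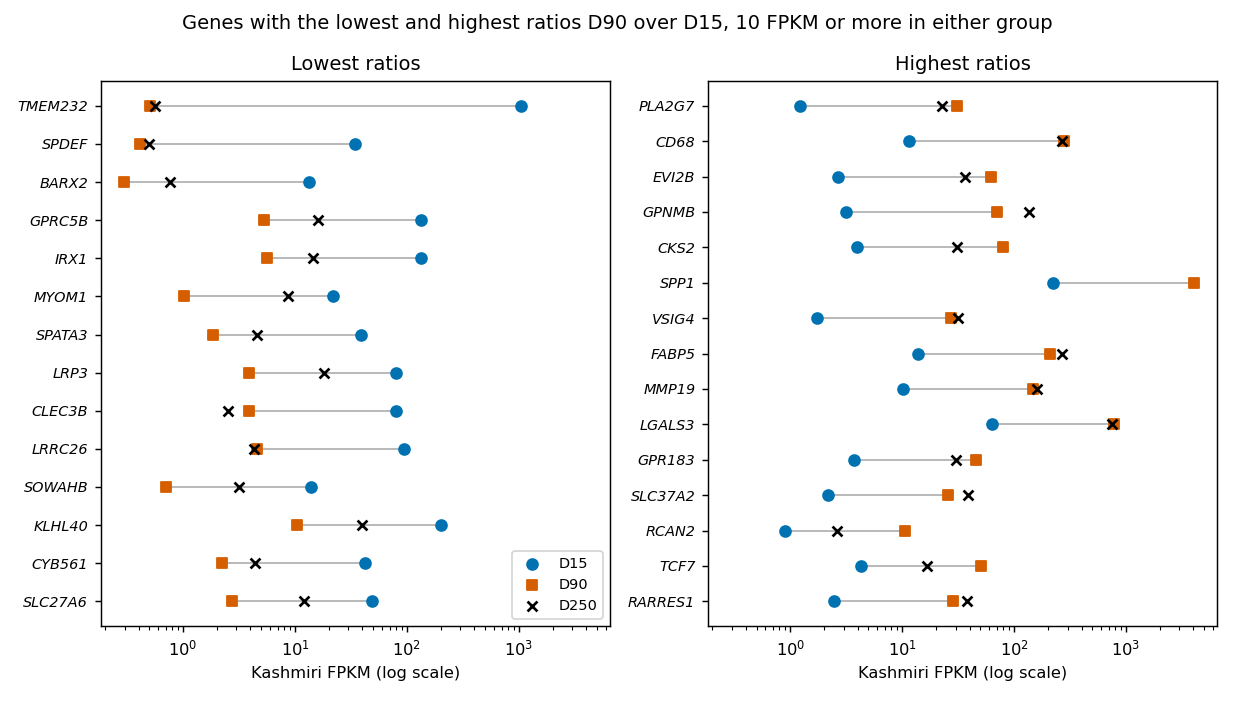
FPKM (log scale) at D15 (circles), D90 (squares) and D250 (crosses) in Kashmiri cattle for the genes with the lowest and the highest ratios D90 over D15, among gene symbols at 10 FPKM or more on either day, with 1 of the 15 lowest not drawn. Most D250 values of the lowest ratios lay between the other days, and SPP1, listed at 0 at D250, has no cross.

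The D250 samples of the same breed, taken in December, gave a further point for these levels. By the labels 2 of them came from cows in lactation 3 and 1 from a cow in lactation 2. That is the mix of D15, whereas D90 held lactation 2 only, so day and lactation number cannot be told apart here. For 13 of the 15 lowest genes the D250 level lay between D90 and D15, as for KLHL40 with 39.7 FPKM. For the 15 highest genes it lay between the other days in 8 and beyond the D90 level in 6, as for GPNMB with 137 FPKM. The summed level of the epithelial identity list came back to 1763 FPKM at D250, and that of T and NK cells went down to 775 FPKM, below the D15 sum. Macrophage markers were at 544 FPKM, against 532 FPKM at D90. These D250 levels and sums were not scaled to the other days. As shares of the summed FPKM of the distinct names, macrophage markers took 0.068% at D90 and 0.11% at D250. T and NK cell markers took 0.18% at D15, 0.51% at D90 and 0.16% at D250. Epithelial identity took 0.39%, 0.059% and 0.36% on the same days.

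In Jersey cows the same comparison, from 3 samples at D15 and 2 at D90, had lower epithelial genes again, while the medians of the lymphocyte lists lay below 0. By the labels, 2 of the Jersey D15 samples came from cows in lactation 2 and 1 from a cow in lactation 3. The Jersey D90 group held 1 sample of each lactation number. Of 10382 genes with a ratio in both breeds, 72.4% had the same sign, with a Pearson correlation of 0.62 across genes, which share the pipeline and are not independent replicates. Of 848 genes at least 4-fold lower in Kashmiri, 515 (60.7%) were at least 4-fold lower in Jersey, which are 60.7% of the 849 Jersey genes. Of 533 at least 4-fold higher in Kashmiri, 121 (22.7%) were so in Jersey, which are 30.0% of the 403 Jersey genes. Over all 10382 genes, 8.18% were at least 4-fold lower in Jersey and 3.88% at least 4-fold higher. No test of a difference between the breeds could be made.

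By list, the tight junction median was -3.47 in Jersey against -2.48 in Kashmiri, and that of keratins and epithelial identity was -3.29 against -1.84. KRT18 had a log2 ratio of -4.40 in Jersey and ELF5 one of -4.75. T and NK cell markers had a Jersey median of -1.05, and CD3E one of -1.05 where Kashmiri had 2.18. B and plasma cell markers had a Jersey median of -0.86, and cell cycle genes of -0.98. Of 11 macrophage markers, 3 were higher by 2-fold in Jersey and 2 lower, with a median of 0.70, against 9 and 0 in Kashmiri. CD68 had a log2 ratio of 2.84. Mineral secretion had a median of 0.59 in Jersey, where SLC30A4, a zinc transporter, was at 0.45 against -2.82 in Kashmiri, although SLC30A2 was lower in both with -5.84 in Jersey.

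Lactose and lipid genes of Kashmiri were not always matched. UGP2 had a log2 ratio of 0.70 in Jersey and -1.94 in Kashmiri. LPIN1 had 0.05 against -3.20, and LPL had 0.03 against -2.72. FASN and ACACA, in contrast, were lower in Jersey too, with log2 ratios of -4.25 and -3.72. There were 13 genes at least 4-fold higher in Kashmiri and 4-fold lower in Jersey, and 11 the other way round. Of these, 9 carry a gene symbol. Chosen from them after the values were seen, these include CDC42EP4, an effector of the small GTPase CDC42, with -2.17 in Kashmiri and 2.46 in Jersey, and the T cell receptor segment TRBV30 with 2.02 and -2.62.

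**Figure D5:**
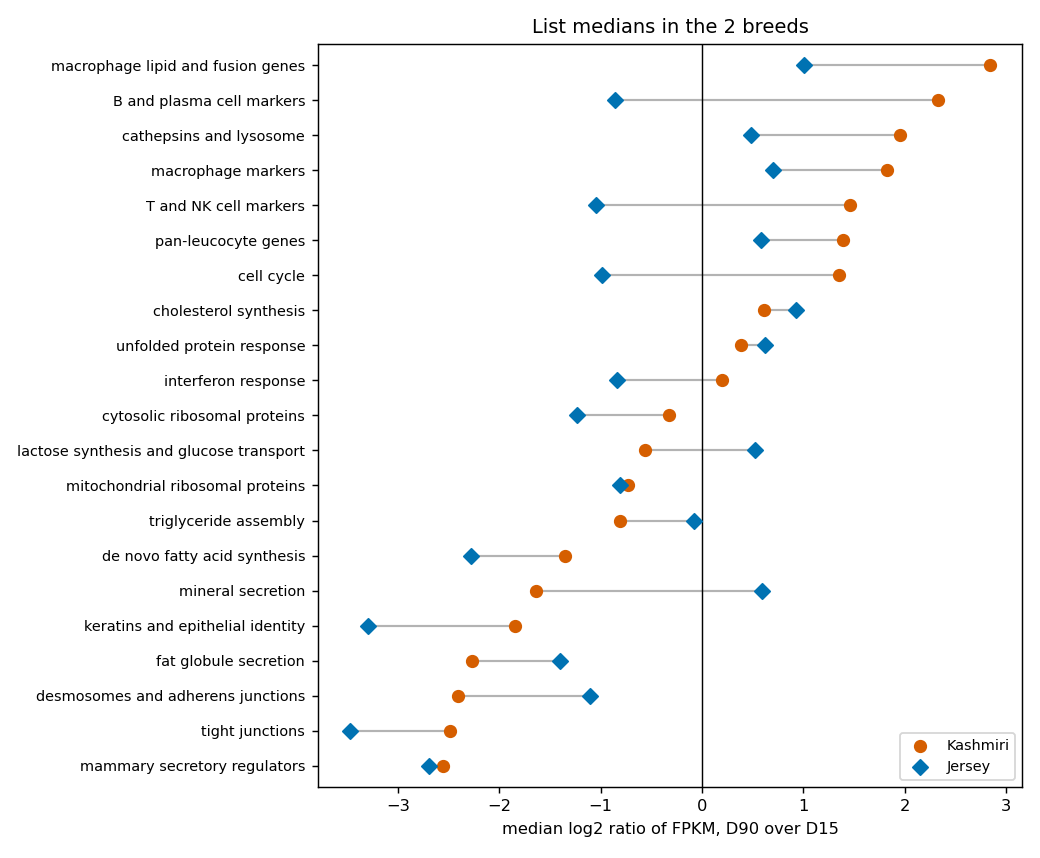
Median log2 ratio D90 over D15 of the same 21 lists in Kashmiri (circles) and Jersey (diamonds). Lists of junctions, keratins, secretory regulators and fat globule secretion lie left of 0 in both breeds, macrophage lists right of 0 in both, and the medians of T and NK cell, B and plasma cell and cell cycle genes lie on opposite sides.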

How the data were processed

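RNA from keratin 18-captured milk epithelial cells was sequenced by the authors as poly(A) libraries. Reads were trimmed (Trimmomatic) and mapped to UMD3.1 (Bowtie, TopHat) by the authors, who then estimated a single FPKM per gene and group (Cufflinks, Cuffdiff). The deposited FPKM are scaled for length and depth by the authors, and the reads behind each value are unknown, so no interval was computed. Cuffdiff values over a group hide the spread between its samples.

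The columns named Local were taken as Kashmiri, the breed that the labels pair with Jersey. Where a name recurred, its entry of largest mean over the 6 groups was kept. Ratios were D90 over D15 without a pseudocount, and a value of 0 gave none. The 52 gene lists and 20 symbol families were looked up by exact name and then as part of a joined name, which counted once per list. Of 734 genes on the lists, 634 were found and 543 had a ratio. Genes were named by rule: the 15 highest and 15 lowest ratios among gene symbols with at least 10 FPKM on either day, the 10 most abundant genes of each day, list members, the capture and purity markers, and genes listed at 0 on one day with at least 100 FPKM on the other. The members, lists and this rule were chosen with earlier results of these data known, and 3 lists were added after the values had been seen.

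Alternatives were a pseudocount of 1 or 0.1 FPKM, no limit on low values, a limit of 10 FPKM, scaling by the upper quartile or by the sum without milk protein genes, centring on the median, all named entries, and gene symbols only. Ratios by locus length were planned and not made, since no positions or lengths were used here. Some genes that the rule takes in are not reported here. The code was tested on simulated data. Calculations ran in Python 3.11.15 with pandas 2.3.3 and numpy 2.4.6, and figures were drawn with matplotlib 3.10.9.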

Additional observations from a re-analysis of the deposited data

How the results depend on the processing

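With a pseudocount of 1 FPKM, 264 genes were at least 4-fold higher and 583 at least 4-fold lower at D90. Without a limit on low values, 1107 were 4-fold higher. With a limit of 10 FPKM, which leaves 5673 genes, the 2-fold counts were 1024 higher and 1509 lower, and the 4-fold counts 275 and 579. Scaling to the sum without milk protein genes gave 1027 genes 4-fold higher, and gene symbols alone gave 430. The other counts stayed within 1.5 times those reported. Of 29 lists and families with at least 4 ratios and a median of 1 or more in size, 2 had a median of the other sign under an alternative, claudins (0.17) and collagens (1.47), both without a limit on low values, which adds genes under 1 FPKM. The mitochondrial genome, with 1 ratio, had a median of -1.84 with a pseudocount of 1 FPKM and -4.63 with 0.1 FPKM, which bring in entries listed at 0. Of the 74 list and family medians, 7 moved by at least 0.58 on the log2 scale with a pseudocount of 1 FPKM, 3 without a limit on low values and 9 with the limit of 10 FPKM, all without a change of sign. With that limit, secretory regulators had a median of -0.95, developmental factors -3.84, mineral secretion -2.33, iron handling 1.68 and prostaglandin and leukotriene genes -1.57. With the pseudocount of 1 FPKM, secretory regulators had -1.35, developmental factors -1.48, tight junctions -1.65, and B and plasma cell markers 1.47. The 2 scalings and centring moved no list median by more than 0.31 on the log2 scale. No paired analysis was possible because the table holds 1 value per group and its columns carry no replicate numbers, and no sample could be left out for the same reason. Month, labelled lactation number and day cannot be told apart, and depth could not be set against any value.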

Other observations

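Of 11 prostaglandin and leukotriene genes with a ratio, 5 were lower at D90 by 2-fold or more and 2 higher, with a median log2 ratio of -0.61. ALOX15, a lipoxygenase, was at 99.0 FPKM at D15 and 8.85 FPKM at D90 (log2 ratio -3.48). PTGDS, a prostaglandin D synthase, was at 67.2 FPKM at D15 against 8.62 at D90 (log2 ratio -2.96). LTC4S, the leukotriene C4 synthase of myeloid cells, was higher, at 0.438 FPKM at D15 and 3.52 at D90, a log2 ratio of 3.01, from a level under 1 FPKM. Of 13 genes of fatty acid oxidation and ketones with a ratio, 4 were lower and 4 higher, with a median of 0.16. BDH1, the mitochondrial enzyme of ketone body use, was at 71.7 FPKM at D15 and 7.54 FPKM at D90 (log2 ratio -3.25), and CPT1A, the gate of fatty acid oxidation, was at 4.81 FPKM at D15 against 17.3 at D90 (log2 ratio 1.85). ACO1 apart, the iron genes SLC11A1 and HMOX1 were higher, with log2 ratios of 1.99 and 1.36. Of 6 collagens with a ratio, 4 were lower by 2-fold or more and 0 higher, with a median of -2.19, but the direction turned to a median of 1.47 over 24 collagens without a limit on low values. COL14A1 was at 43.4 FPKM at D15 and 2.50 at D90, a log2 ratio of -4.12 and COL9A1 at 47.2 FPKM at D15 and 4.56 FPKM at D90 (log2 ratio -3.37), while COL1A1 and COL3A1 of fibroblasts stayed under 1 FPKM. VIM, vimentin of mesenchymal cells and leucocytes, was at 66.3 FPKM at D15 against 454 at D90 (log2 ratio 2.78).

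Gene symbols were also grouped by their letters, giving 224 prefixes with at least 6 genes, and the prefixes named here were picked after their values were seen. The grouping took in only symbols with a number after the letters. All 6 numbered beta tubulin symbols (TUBB) with a ratio were higher by 2-fold or more, with a median log2 ratio of 2.22. Among them were TUBB2A at 8.77 FPKM at D15 and 38.4 at D90, a log2 ratio of 2.13, and TUBB4B at 54.0 FPKM at D15 and 129 FPKM at D90 (log2 ratio 1.26). All 7 chemokine receptors of the CCR prefix were higher by 2-fold, with a median of 1.57. Of 59 genes whose symbol has the CD prefix, 41 were higher and 5 lower by 2-fold. The prefix also takes in genes that are not CD antigens, such as CD2AP, CD2BP2 and CD3EAP. Of 8 short-chain dehydrogenases (DHRS) 7 were lower, with DHRS3, a retinal reductase, at 115 FPKM at D15 against 29.7 at D90 (log2 ratio -1.95), and DHRS9 higher at 2.73 FPKM at D15 and 11.7 at D90, a log2 ratio of 2.09. Of 16 Nudix hydrolases (NUDT) 9 were lower and 0 higher, with NUDT16 at 69.0 FPKM at D15 and 10.9 FPKM at D90 (log2 ratio -2.66). Of 10 subunits of the CCR4-NOT deadenylase complex (CNOT) 5 were higher and 0 lower, with a median of 1.05.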
